A study of Mus musculus with 4 samples.

Results

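The expression of cardiac calcium handling and conduction genes was followed in cells of the mouse Mesp1 lineage from E8.0 to E10.5. The set was chosen by gene symbol and held 9 of the 27998 genes in the count matrices: Ryr2, Atp2a2, Pln, Slc8a1, Cacna1c, Hcn4, Gja1, Gja5 and Gjc1. Single-cell RNA-seq was performed on embryos of the Swiss Webster strain with the genotype Mesp1Cre;Rosa26-GFPflox/+, in which Cre made from Mesp1, a gene of early mesoderm, turns on GFP permanently in those cells and their descendants. Live GFP-positive cells from pooled embryos were sorted at 4 stages, with 1 library for each and the same genotype in all: E8.0, then E8.25, E9.5 and finally E10.5. The tissue taken was the upper part of the body for both early libraries but the heart with the pharyngeal apparatus for both late ones, and stage, dissected region and library cannot be told apart. Cells without a history of Mesp1 expression were removed by the sort.

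Each heartbeat begins when calcium enters the cardiomyocyte through voltage-gated channels in the cell membrane and triggers a larger release of calcium from the sarcoplasmic reticulum. The calcium is then pumped back into the reticulum or out of the cell. The impulse itself starts in pacemaker cells, which carry a hyperpolarization-activated current, and passes from cell to cell through gap junctions built of connexins, whose types differ between the chambers and the conduction system.

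Heart muscle cells were taken by sarcomere genes alone. A cell was called sarcomere-positive if at least 5 of Tnnt2, Myl4, Myl7, Actc1, Tnni1, Ttn, Myh6 and Myh7 had at least 2 UMIs (distinct captured molecules), a rule that uses none of the 9 genes. Of 21448 retained cells, 1141 were positive and 20307 were not. In order of stage, which all lists of 4 values follow, the positive cells numbered 342, 74, 480 and 245, or 4.80%, 2.57%, 12.2% and 3.26% of the cells of each library. Median depth was similar in the 2 classes of each library, at 15146 to 34166 UMIs per positive cell and 15274 to 35269.5 UMIs per other cell. Just inside the threshold, 56, 24, 87 and 47 positive cells held exactly 5 of the 8 genes, and just outside it 100, 64, 151 and 73 other cells held 4.

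The markers set apart for a check of the label followed it. Summed over Nkx2-5, Gata4, Tbx5, Tbx20, Myl2, Myl3, Nppa, Smpx and Csrp3, the positive cells had 1445 to 5758 CPM, the UMIs of a gene per 1000000 UMIs of the class, and the other cells 27.8 to 106 CPM. Of 7 skeletal muscle markers, Myod1, Myf6 and, in 3 libraries, Myog had no UMI in the positive cells, while Acta1 alone of the list was high, at 165 to 545 CPM. Of 4 smooth muscle markers Acta2, Tagln and Cnn1 were high in positive cells and Myh11 was at 0.30 to 2.34 CPM. Endothelial markers summed to 99.6 to 150 CPM in positive cells and 175 to 260 CPM in other cells. The E8.25 positive cells were the fewest and had the lowest sum of the 8 sarcomere genes, 11439 CPM, against 17702, 29671 and 30236 CPM in the others. Between 16 and 88 cell barcodes were shared by each pair of libraries, and leaving them out changed no call on the 9 genes.

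The 250 bases before the start of transcription are shown for Pln, Slc8a1 and Gja1, the 3 genes of the set whose window holds the GATA motif AGATAA on either strand. Pln and Slc8a1 were the members with the largest difference between positive and other cells, and Gja1 was the member that differed in the opposite direction. The sequences are from RefSeq on GRCm38.p6, the same build as mm10, and run 5′ to 3′ on the strand of the gene, with the motif or its reverse complement in capitals.

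Pln, chr10:53337436-53337685, plus strand: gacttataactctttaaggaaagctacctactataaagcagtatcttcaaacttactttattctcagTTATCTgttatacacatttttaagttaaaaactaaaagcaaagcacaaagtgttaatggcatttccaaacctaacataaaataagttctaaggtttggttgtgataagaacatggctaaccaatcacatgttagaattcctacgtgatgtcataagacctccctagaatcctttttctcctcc
Slc8a1, chr17:81738388-81738637, minus strand: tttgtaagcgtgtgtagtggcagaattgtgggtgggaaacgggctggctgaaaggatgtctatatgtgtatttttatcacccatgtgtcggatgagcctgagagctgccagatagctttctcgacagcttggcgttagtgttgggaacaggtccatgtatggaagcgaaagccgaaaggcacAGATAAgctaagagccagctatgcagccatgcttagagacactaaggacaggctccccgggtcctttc
Gja1, chr10:56377050-56377299, plus strand: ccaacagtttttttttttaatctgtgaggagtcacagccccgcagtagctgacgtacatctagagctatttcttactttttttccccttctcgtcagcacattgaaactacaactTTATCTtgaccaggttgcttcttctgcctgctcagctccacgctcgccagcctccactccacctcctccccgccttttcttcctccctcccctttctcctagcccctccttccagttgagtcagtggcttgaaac

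The motif began 183 bases before the start in Pln, 68 in Slc8a1 and 135 in Gja1. Windows were found for 7 of the 9 genes, 9 windows in all, and 3 of them held the motif, against 9.99% of 32851 windows of all genes. The T-box motif AGGTGT was in the window of Hcn4 and in 11.8% of all windows. The NKX2-5 motif TNAAGTG was in none of the 9 windows and in 10.1% of all, and the SRF and MEF2 motifs were in none of the 9 and in 1.47% and 2.92% of all. These matches describe letters and not binding.

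The calcium release channel of the sarcoplasmic reticulum, Ryr2 (chr13:11553099-12106945), was detected in positive cells of all stages. Its level was 37.8, 25.7, 71.8 and 83 CPM (95% Poisson intervals 33.3 to 42.7, 19.9 to 32.7, 66.4 to 77.6 and 74.5 to 92.2), and in other cells it was 0.909, 0.677, 2.34 and 1.23 CPM. The positive cells were higher in every library, and the lowest of them exceeded the highest of the other cells by an order of magnitude. In edgeR's quasi-likelihood test on UMIs summed per library and class, with the library as a block, the log2 fold difference was 5.41 ± 0.19 (SE, n = 4 libraries, adjusted p = 2.36e-05).

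Atp2a2 (chr5:122453513-122502225) encodes the pump that returns calcium to the reticulum, and its gene-level counts do not separate the cardiac isoform from the one made in most cells. It was measured in both classes, at 253, 215, 362 and 429.9 CPM in positive cells and at 77.9, 58.1, 64.2 and 44.6 CPM in other cells. The positive cells stood above the other cells in each library, and the distance was larger at the late stages, with log2 ratios of 1.70, 1.89, 2.50 and 3.27. Over the 4 libraries the log2 fold difference was 2.33 ± 0.25 (edgeR adjusted p = 0.00181). Between the first and the last stage its level was 1.70-fold higher in positive cells and 1.75-fold lower in other cells.

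Pln (chr10:53337686-53345999) encodes phospholamban, the inhibitor of that pump. It had the steepest course of the members with more than 1 UMI in positive cells at E8.0, which leaves out Gja5. Its levels were 1.77, 10.1, 109 and 198 CPM (0.915 to 3.09 from 12 UMIs, 6.62 to 14.8, 102 to 116 and 185 to 212). Other cells had 0.0138, 0.106, 0.50 and 1.04 CPM, also lowest at the first stage and highest at the last. The level in positive cells at E10.5 was 112-fold that at E8.0 (log2 ratio 6.81, 95% interval 5.99 to 7.76), and none of the intervals of consecutive stages overlapped. Its log2 fold difference between classes was 7.41 ± 0.24 (edgeR adjusted p = 1.83e-05), the largest of the 9 genes.

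The share of positive cells with a Pln UMI was 3.22%, 13.5%, 33.1% and 39.6%, and 1.66%, 7.37%, 29.7% and 38.3% when each cell was thinned to 10000 UMIs. In globin-rich cells, which should lack the gene, it was 0 of 69 cells, 0.317%, 0 of 5 cells and 1.18%, at median depths of 20116 to 52203 UMIs, and 0.0451% and 0.447% after thinning where a UMI was found. At E10.5 most positive cells still had no Pln UMI at a median of 15146 UMIs.

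The sodium-calcium exchanger Slc8a1 (chr17:81373105-81738387), which carries calcium out across the cell membrane, had 17.9, 7.40, 30.6 and 29.7 CPM in positive cells (14.8 to 21.3, 4.46 to 11.6, 27.1 to 34.5 and 24.7 to 35.4). In other cells it had 0.262, 0.135, 0.565 and 0.460 CPM. The ratio between the classes varied little from library to library, with log2 values of 6.09, 5.77, 5.76 and 6.01. The log2 fold difference was 5.91 ± 0.16 (edgeR adjusted p = 9.46e-06).

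Cacna1c (chr6:118587240-119197384) encodes the pore of the L-type calcium channel that admits the trigger calcium. Positive cells had 6.64, 3.51, 9.87 and 11.8 CPM and other cells 0.682, 0.628, 0.629 and 1.54 CPM, and the positive cells were higher in each library. Its mean over the 8 sums was below the minimum of 5 CPM used for the test. Without that minimum its log2 fold difference was 3.17 ± 0.31 (edgeR adjusted p = 0.000232), and with 1 library left out at a time it lay between 2.83 and 3.33.

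Hcn4 (chr9:58822949-58863175), the main pacemaker channel of the heart, also fell below the minimum. It had 7.82, 5.84, 4.15 and 5.55 CPM in positive cells (5.86 to 10.2, 3.27 to 9.64, 2.92 to 5.72 and 3.52 to 8.33) and 0.344, 0.203, 0.629 and 0.298 CPM in other cells. The positive cells were higher in all 4 libraries, and the E10.5 over E8.0 log2 ratio of -0.50 (-1.27 to 0.24) was within counting error. Without the minimum the log2 fold difference between classes was 3.98 ± 0.39 (edgeR adjusted p = 0.000249), and 3.74 to 4.39 with 1 library left out at a time.

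**Figure D1:**
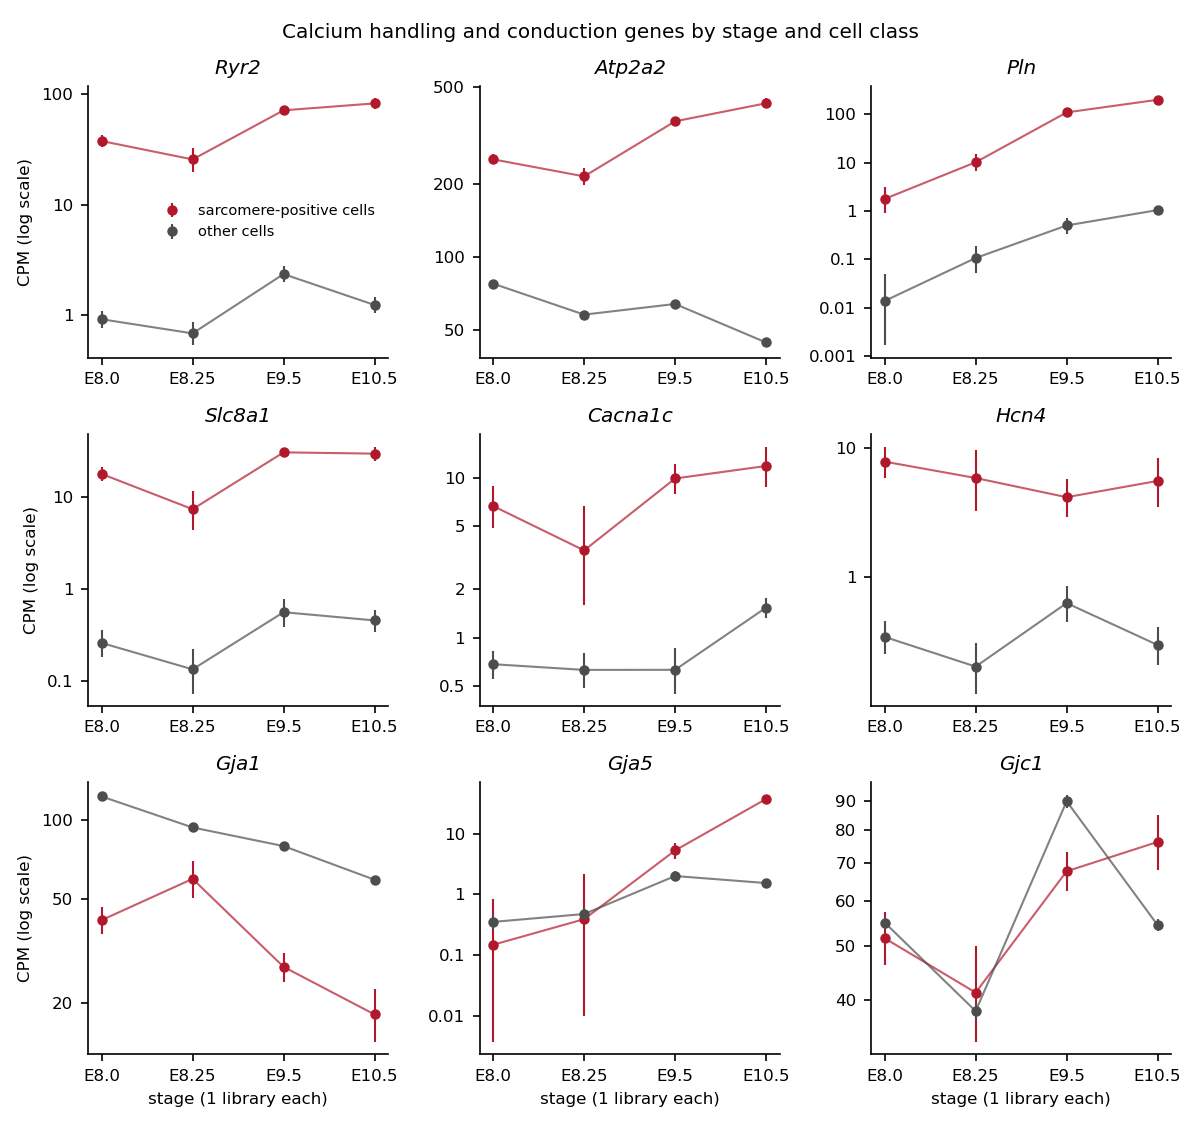
Level of each of the 9 genes (CPM of summed UMIs, log axis) in sarcomere-positive (red) and other cells (grey) of the 4 libraries in order of stage. Bars are 95% Poisson intervals for counting error only and each axis has its own range. Pln goes from 1.77 to 198 CPM in positive cells, Gja5 leaves the level of 1 UMI only at E9.5, and Gja1 lies lower in positive cells at every stage.

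Among the connexins, Gja1 (chr10:56377300-56390419), which encodes connexin 43, the main gap junction protein of the adult working ventricle, was lower in positive cells. They had 41.5, 59.6, 27.5 and 18.1 CPM (36.8 to 46.6, 50.5 to 69.8, 24.2 to 31.2 and 14.2 to 22.7), and other cells had 123, 93.7, 79.5 and 59.2 CPM. The other cells were higher in all 4 libraries, and the log2 fold difference was -1.37 ± 0.18 (edgeR adjusted p = 0.00371). Fitted without the library block, the value was -1.29 and the call was lost (adjusted p = 0.0558). Between the first and the last stage Gja1 was 2.29-fold lower in positive cells and 2.08-fold lower in other cells.

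Gja5 (chr3:97032402-97053634) encodes connexin 40, known from the atria, the fast ventricular conduction system and arterial endothelium. In positive cells it had 1 UMI in each early library, then 47 UMIs or 5.27 CPM (3.88 to 7.01) and 154 UMIs or 37.2 CPM (31.5 to 43.5). Other cells had 0.351, 0.474, 2.0 and 1.53 CPM. The positive cells were thus higher in the 2 late libraries and, on 1 UMI each, not in the 2 early ones. The log2 fold difference of 2.21 ± 0.87 was not called (edgeR adjusted p = 0.0951, and 0.00560 to 0.203 over the alternatives that tested it). Without E10.5, the library with 154 of its UMIs in positive cells, Gja5 fell below the minimum and was not tested. With endothelial-like and globin-rich cells left out of the other cells, the log2 fold difference was 5.08 (adjusted p = 0.00560). The level was 7.04-fold higher at E10.5 than at E9.5 (log2 ratio 2.82, 2.34 to 3.32).

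Gjc1 (chr11:102799477-102819686) encodes connexin 45, known as the connexin of the early heart tube and of the nodes. It had 51.5, 41.3, 67.7 and 76.2 CPM in positive cells and 54.9, 38.3, 90.0 and 54.4 CPM in other cells in order. The positive cells were lower than the other cells at E9.5, with a log2 ratio of -0.41 (-0.53 to -0.29), and higher at E10.5, with 0.49 (0.32 to 0.65). Against remaining cells, the other cells without the endothelial-like and globin-rich ones, the E9.5 ratio was -0.45 (-0.57 to -0.33) and the E10.5 ratio 0.07 (-0.10 to 0.23), so the higher level at E10.5 was seen only with those groups in the comparison. The log2 fold difference over the libraries was 0.01 ± 0.12 (edgeR adjusted p = 0.954) and changed sign between settings.

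**Figure D2:**
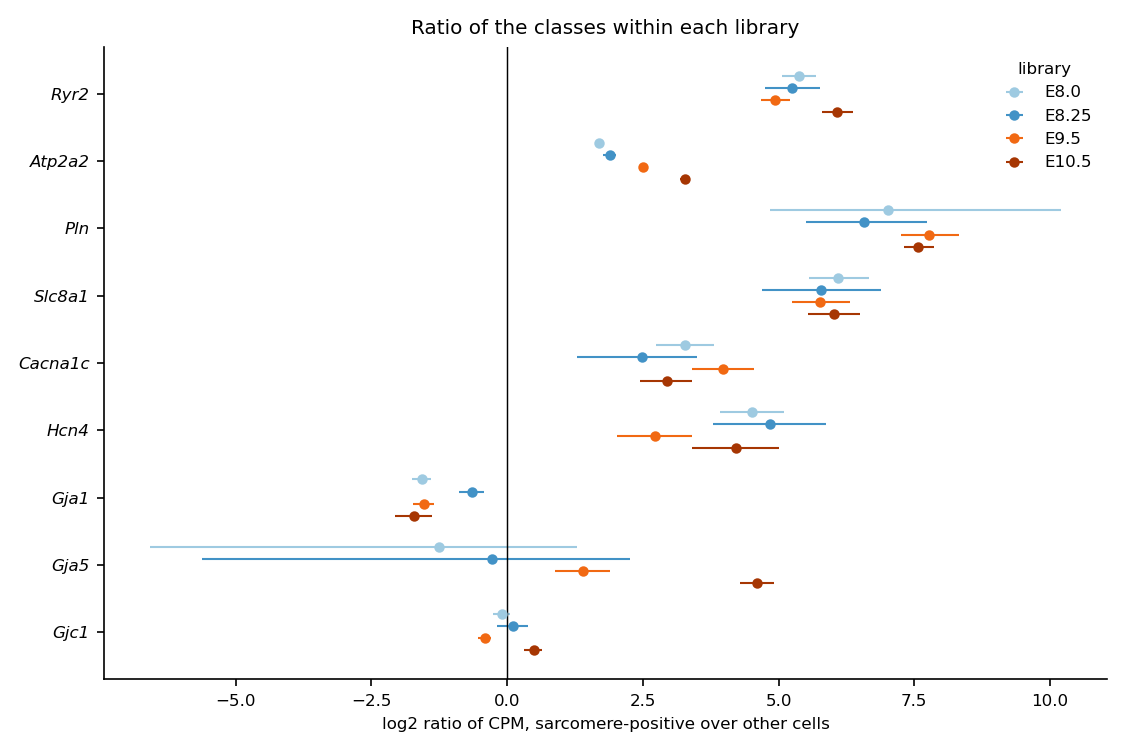
log2 ratio of CPM, sarcomere-positive over other cells of the same library, for each gene, with 95% intervals from the conditional binomial (counting error only). Points right of the line at 0 are higher in positive cells. The 6 genes from Ryr2 to Hcn4 lie to the right in all 4 libraries, Gja1 lies to the left in all, and Gja5 and Gjc1 lie on both sides.

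Of the 7 members that passed the minimum, 4 were higher in positive cells and 1 was lower, where 18.4% of the 9297 genes tested were higher and 16.7% lower, 35.1% in all. Ryr2, Pln, Slc8a1 and Gja5 passed the minimum only through the positive cells, so the count is a description, and on other cells alone Atp2a2, Gja1 and Gjc1 would have passed. Without the minimum 6 of 9 were higher and 1 lower, against 9.22% and 10.2% of 21652 genes. Both classes of a library come from 1 suspension, and the 4 libraries that serve as replicates are 4 stages, so the p-values describe a difference common to the stages.

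Between stages there was no replicate and no test, and the members were sorted by a 2-fold difference among genes with a mean of at least 10 CPM over both stages. From E8.0 to E10.5 in positive cells 4 members differed by that much, as did 14.8% of 7549 genes. Ryr2 was higher, with a log2 ratio of 1.14 (0.90 to 1.37), as were Pln and Gja5, the latter on 1 UMI at E8.0, and Gja1 was lower, with -1.20 (-1.58 to -0.82). Atp2a2, Slc8a1 and Gjc1 were higher by less than 2-fold, with log2 ratios of 0.77 (0.67 to 0.86), 0.73 (0.36 to 1.11) and 0.57 (0.34 to 0.79). Cacna1c and Hcn4 had a mean below 10 CPM.

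By step, E8.25 was 2-fold lower than E8.0 in Slc8a1, with a log2 ratio of -1.27 (-2.05 to -0.57), where 2.2% of 7218 genes were lower and 2.37% higher. From E8.25 to E9.5, Ryr2, Pln and Slc8a1 were higher, with log2 ratios of 1.48, 3.42 and 2.05, and Gja1 was lower, with -1.12, where 5.5% of 7368 genes were higher and 3.52% lower. From E9.5 to E10.5 Gja5 was the member that differed by 2-fold, where 3.37% of 7604 genes were higher and 1.63% lower. Pln missed that size at this step, with a log2 ratio of 0.87 (0.73 to 1.00). Members with a mean below 10 CPM were not sorted. At the first step these were Pln, with a log2 ratio of 2.52 (1.48 to 3.64), and Cacna1c, Hcn4 and Gja5, within counting error. From E8.25 to E9.5 they were Cacna1c, with 1.49 (0.50 to 2.67), Gja5, with 3.76 (1.21 to 9.09), and Hcn4, within counting error. The Gja5 ratio rests on 1 UMI at E8.25. At the last step Hcn4 was below that mean and within counting error.

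In other cells, E10.5 and E8.0 differed 2-fold in Gja1, with a log2 ratio of -1.06 (-1.10 to -1.02), where 9.61% of 7213 genes did. In remaining cells alone the ratio was -0.70 (-0.74 to -0.66), under 2-fold. Gjc1 in other cells was higher from E8.25 to E9.5, with a log2 ratio of 1.23 (1.17 to 1.29), where 5.29% of 7259 genes were 2-fold higher and 2.31% lower. In remaining cells it was 0.99 (0.93 to 1.05), just under that size. None of Atp2a2, Gja1 and Gjc1 differed by that much at the first step, where 1.33% of 7067 genes were higher and 1.87% lower. Nor did any of them at the last, where 2.19% of 7316 genes were higher and 1.83% lower. The other members had a mean below 10 CPM in other cells and were not sorted. Of those, Pln had a log2 ratio of 2.95 (0.75 to 6.16) at the first step, from 0.0138 to 0.106 CPM. At the last step Cacna1c had 1.29 (0.79 to 1.83), Pln 1.06 (0.48 to 1.67) and Hcn4 -1.08 (-1.77 to -0.39).

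Within and around the positive class, the members were compared by the number of sarcomere genes a cell held. Atp2a2, Ryr2 and Slc8a1 were highest in cells with 7 or 8 genes in every library. At E9.5, Ryr2 had 0.77 CPM in cells with none of the 8 genes, 11.4 in cells with 4, 26.5 with 5, 39.3 with 6 and 92.6 with 7 or 8, so cells just outside the threshold already carried it. Of the 74 positive cells at E8.25, 34 had 7 or 8 genes, and in those Ryr2 had 44.3 CPM, against 47.6 in such cells at E8.0. Taken over the whole class the 2 stages had 25.7 and 37.8 CPM. For Slc8a1 the 2 stages had 15.1 and 24.0 CPM in cells with 7 or 8 genes.

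Pln and the connexins did not follow that course at every stage. At E8.0, Pln was at 1.5 CPM, from 7 UMIs, in cells with 7 or 8 genes, whereas at E9.5 it was 7.55 CPM with 6 genes and 164 with 7 or 8, and at E10.5 it was 36.9 and 268 CPM. Gja1 had 132 CPM in cells with no sarcomere gene and 24.4 in cells with 7 or 8 at E8.0, and 60.3 and 15.6 CPM at E10.5. Hcn4 at E10.5 was 15.2 CPM in the 34 cells with 6 genes and 4.16 in the 164 cells with 7 or 8. These cells held 19 Hcn4 UMIs together, so the difference rests on few counts. At E8.0 Hcn4 was highest, at 9.21, in cells with 7 or 8.

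**Figure D3:**
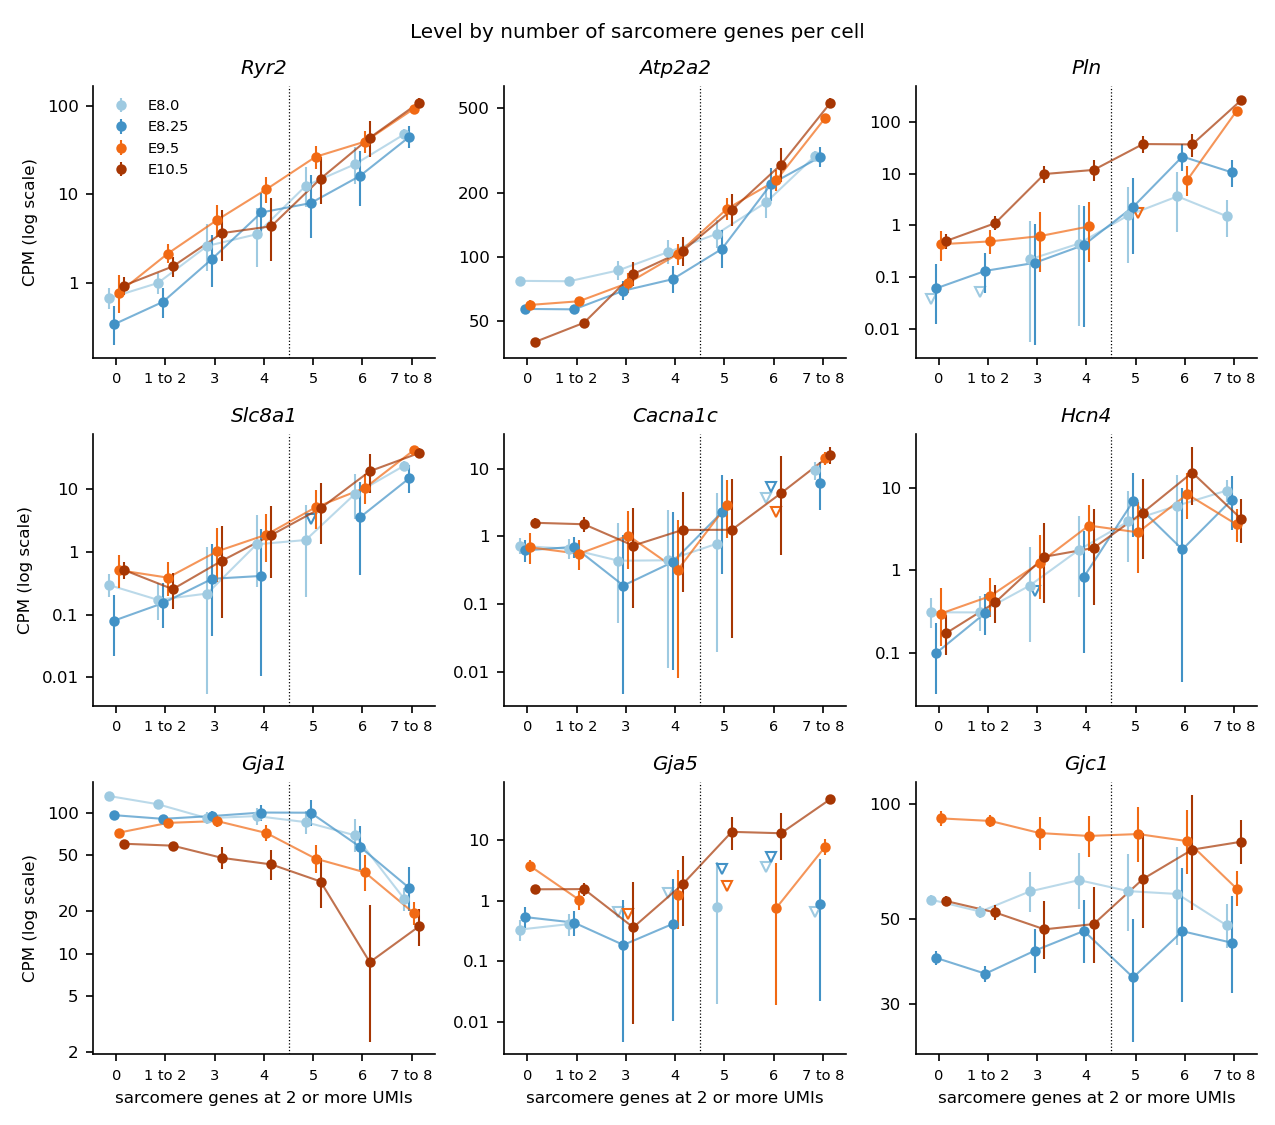
Level of each gene (CPM, log axis) in cells grouped by how many of the 8 sarcomere genes had at least 2 UMIs, with 1 line per library. The dotted line is the threshold between other and positive cells, bars are 95% Poisson intervals, and open triangles mark groups with 0 UMIs, drawn at the level of 3 UMIs. Atp2a2 and Ryr2 are highest, and in 3 libraries Gja1 is lowest, in cells with 7 or 8 genes.

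Outside the positive class, cells were split into endothelial-like cells (at least 4 of 8 endothelial markers detected), globin-rich cells (at least 5% of UMIs from globin genes) and remaining cells. Of these groups Gja5 was highest in endothelial-like cells at every stage. They had 3.85, 5.20, 27.6 and 19.8 CPM, and remaining cells 0.0306, 0.0892, 0.276 and 0.385 CPM. At E9.5 the endothelial-like cells had more than the positive cells, with 27.6 CPM (22.6 to 33.3) against 5.27 (3.88 to 7.01), and at E10.5 they had less, with 19.8 CPM (16.8 to 23.2) against 37.2 (31.5 to 43.5). In order, 4, 2, 4 and 0 positive cells were also endothelial-like.

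Gja1 was highest in remaining cells at each stage, at 129, 112, 81.6 and 79.2 CPM, followed by endothelial-like cells at 82.7, 92.7, 51.8 and 37.1 CPM. Globin-rich cells, at 14.2, 10.7 and 2.14 CPM in the libraries other than E9.5, had less than positive cells. Gjc1 had 57.5, 46.4, 92.3 and 72.6 CPM in remaining cells, 37.4, 33.7, 57.7 and 34.9 in endothelial-like cells and, without E9.5, 0.43, 2.79 and 2.18 in globin-rich cells. Atp2a2 was found in all groups, at 54.4 to 74.2 CPM in endothelial-like, 53.1 to 78.7 in remaining and 15.1 to 52.8 in globin-rich cells. The globin-rich group held 69, 315, 5 and 1020 cells, so its weight in the other class changed with stage. From E8.0 to E10.5, Gja1 was 1.63-fold lower in remaining cells and 2.08-fold lower in all other cells, and Atp2a2 was 1.48-fold and 1.75-fold lower.

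**Figure D4:**
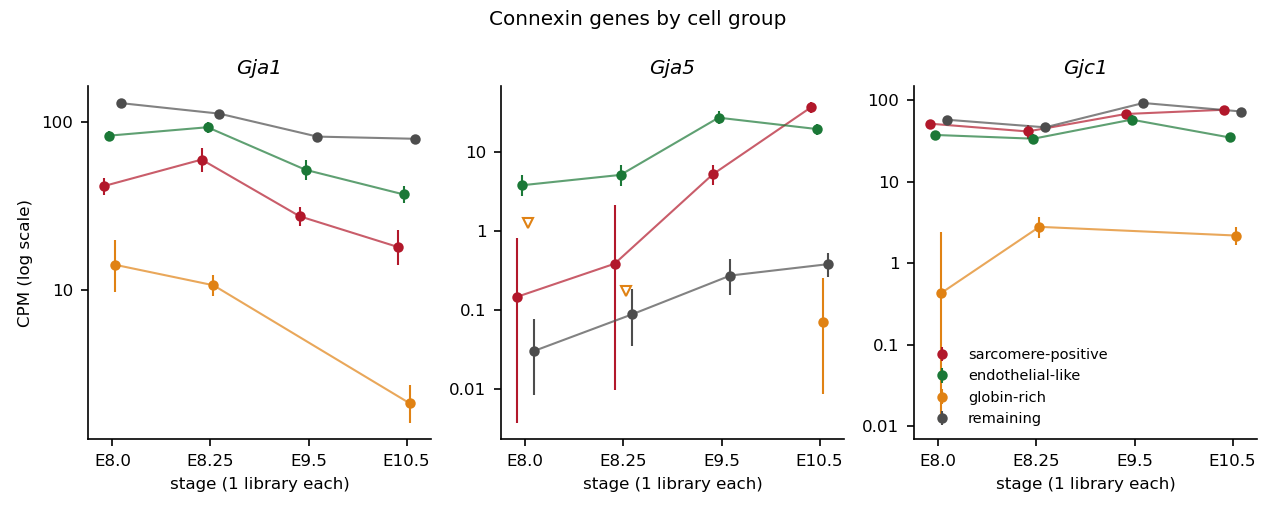
Level of the 3 connexin genes (CPM, log axis) in 4 cell groups of each library, for groups of at least 10 cells. Bars are 95% Poisson intervals and open triangles mark 0 UMIs, drawn at the level of 3 UMIs. In the middle panel Gja5 is highest in endothelial-like cells until E9.5 and in sarcomere-positive cells at E10.5.

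The positive cells of both late libraries were divided by chamber markers, none of them in the set or in the rule. A cell was called by the list with the most detected markers (at least 2 and more than either other list): Myl2, Irx4, Hey2 and Cited1 for ventricular-like, Nr2f1, Nr2f2, Vsnl1 and Stard10 for atrial-like and inflow-like, and Isl1, Rspo3, Sema3c and Tdgf1 for outflow-like cells. These held 121, 239 and 59 cells at E9.5 and 32, 127 and 60 at E10.5, with 61 and 26 cells unassigned, so that the mix of classes differed between the libraries. Nr2f1 and Nr2f2 were also found in other cells, at up to 96.6 and 157 CPM.

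Among the called classes, Pln was highest in ventricular-like cells, followed by outflow-like cells. Ventricular-like cells had 281 CPM at E9.5 (260 to 303) and 499.99 at E10.5 (447 to 558), outflow-like cells 106 (85.6 to 129) and 400.2 (360 to 444), and atrial-like and inflow-like cells 8.41 (5.95 to 11.5) and 21.6 (15.9 to 28.8). The atrial-like and inflow-like level was 33.4-fold below the ventricular-like one at E9.5 and 23.1-fold below it at E10.5. Within classes Pln was higher at E10.5 than at E9.5, with log2 ratios of 0.83 (0.63 to 1.02), 1.92 (1.60 to 2.26) and 1.36 (0.72 to 2.02) in the same order. A Pln UMI was found in 75.2% and 87.5% of ventricular-like cells and in 7.95% and 7.87% of atrial-like and inflow-like cells. Unassigned cells had 149 CPM (127 to 174) at E9.5, more than outflow-like cells, and 218 (176 to 266) at E10.5. The ventricular marker Myl2 was found in 47.5% and 36.7% of outflow-like cells and in 18.4% and 15.0% of atrial-like and inflow-like cells. Its bearing on the outflow-like level of Pln was not tested.

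Gja5 at E10.5 lay in the atrial-like and inflow-like cells, which held 149 of its 154 UMIs. Their level was 7.53 CPM at E9.5 (5.21 to 10.52) and 68.6 at E10.5 (58.0 to 80.5), a log2 ratio of 3.19 (2.64 to 3.77). Ventricular-like cells had 5.46 CPM (2.91 to 9.33) and 7.79 CPM (2.53 to 18.2, from 5 UMIs). Outflow-like cells had 0 UMIs at both stages, where 3 UMIs would be 3.26 and 3.35 CPM. Against that floor atrial-like and inflow-like cells were 20.5-fold higher at E10.5, and the exact lower limit of the log2 ratio was 4.04.

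Hcn4 was also mainly atrial-like and inflow-like, at 7.08 CPM (4.84 to 9.999) and 9.21 CPM (5.62 to 14.2) at the 2 stages. Ventricular-like cells had 3 UMIs at E9.5 and none at E10.5, and outflow-like cells 2 and 1. Over outflow-like cells the log2 ratio was 1.70 (-0.27 to 4.81) at E9.5, within counting error, and 3.04 (0.40 to 8.42) at E10.5. At E9.5 the log2 ratio of atrial-like and inflow-like over ventricular-like cells was 2.49 (0.82 to 4.84). At E10.5, with 32 ventricular-like cells, the level was 1.97-fold that of 3 UMIs in those cells. The exact lower limit of the log2 ratio over ventricular-like cells was 0.55.

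Outflow-like cells stood apart from both other classes in the remaining connexins. Gjc1 had 119 CPM (97.4 to 143) and 136 CPM (113 to 163) there, 67.5 and 53.9 in atrial-like and inflow-like cells and 47.9 and 67.0 in ventricular-like cells. Gja1 had 5.44 CPM (1.77 to 12.7) and 7.82 CPM (3.15 to 16.1) in outflow-like cells, below the 30.3 and 19.3 of atrial-like and inflow-like and the 35.3 and 23.4 of ventricular-like cells. The latter 2 classes did not differ in Gja1 beyond counting error, with log2 ratios of -0.22 (-0.62 to 0.19) and -0.27 (-1.15 to 0.68).

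Among the called classes, Ryr2 and Atp2a2 were lowest in outflow-like cells, at 25.0 and 42.5 CPM and at 184 and 217 CPM. Atp2a2 in atrial-like and inflow-like cells over ventricular-like cells had a log2 ratio of 0.11 (-0.01 to 0.23) and 0.61 (0.41 to 0.81) at the 2 stages. For Ryr2 that ratio was -0.55 (-0.80 to -0.30) and 0.30 (-0.13 to 0.75). Cacna1c was lower in atrial-like and inflow-like than in ventricular-like cells at E9.5, at 5.09 against 18.5 CPM, and the difference was within counting error at E10.5, at 11.5 against 18.7 CPM. Slc8a1 was between 23.9 and 37.8 CPM in all 3 classes at both stages.

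**Figure D5:**
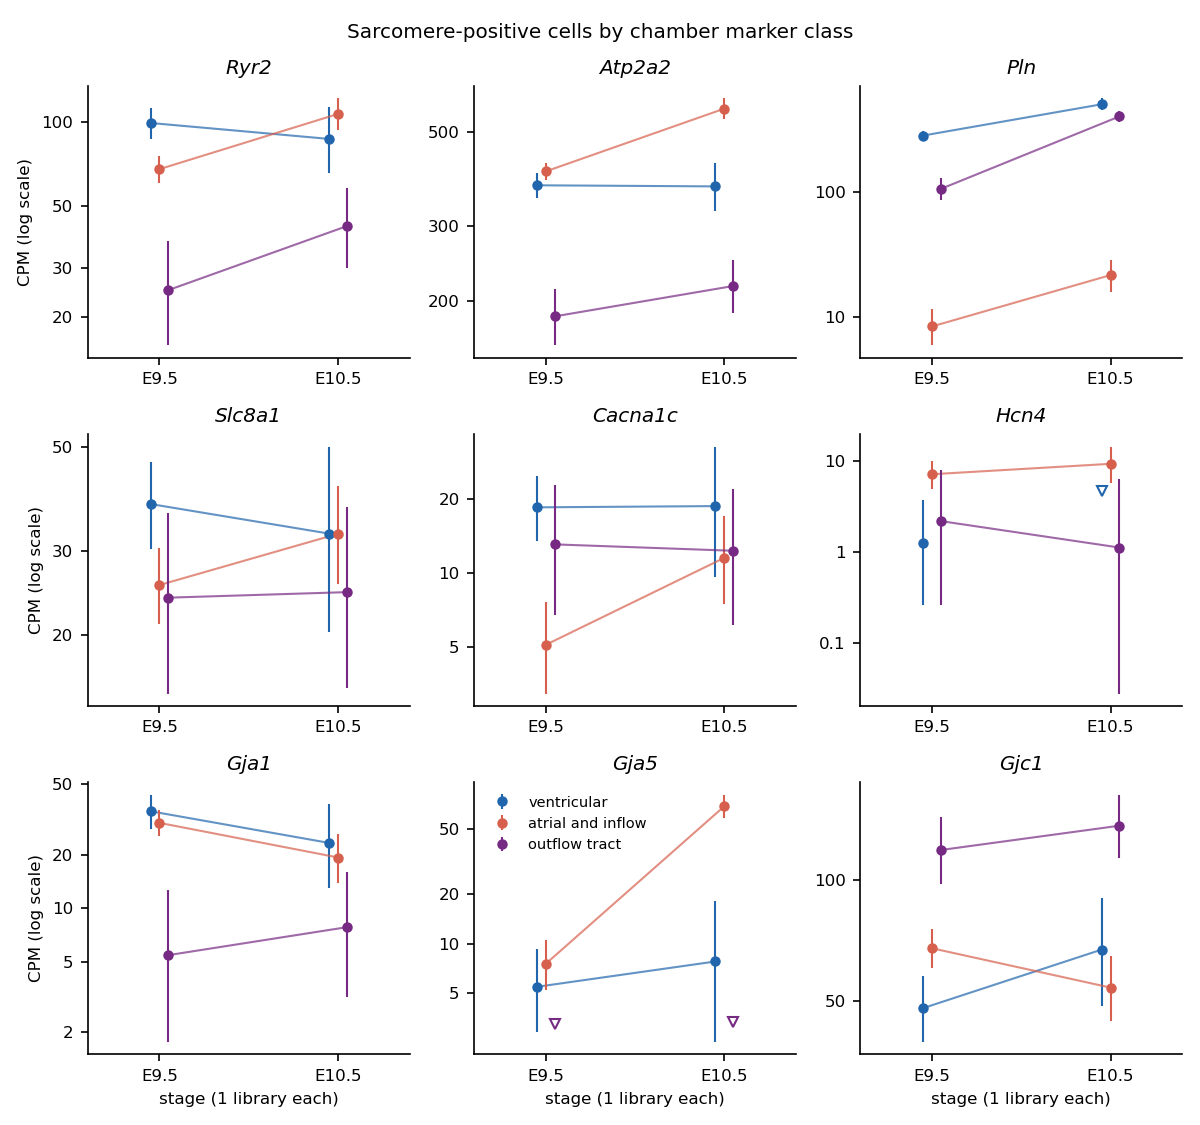
Level of each gene (CPM, log axis) in ventricular-like (blue), atrial-like and inflow-like (red) and outflow-like (purple) sarcomere-positive cells at E9.5 and E10.5, with 95% Poisson intervals. Open triangles mark 0 UMIs, drawn at the level of 3 UMIs, and are joined to no line. Pln is lowest and Hcn4 and, at E10.5, Gja5 are highest in atrial-like and inflow-like cells, and Gjc1 is highest in outflow-like cells.

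Other genes of the same pathways were read from the same edgeR fit, in 4 lists written with earlier results of these data known. Of 27 other calcium handling genes 20 were tested, of which 14 were higher in positive cells and none lower, with a median log2 fold difference of 0.91 against -0.01 over all 9297 genes, of which 18.4% were higher and 16.7% lower. On other cells alone 13 of the 20 would have passed the minimum, and Trdn, Hrc, Casq1 and Jph2 passed it only through the positive cells, so count and median are a description. The largest were Trdn, the triadin that anchors the release complex (9.28 ± 0.45), Tnnc1, the calcium sensor of the thin filament (7.21 ± 0.28), Hrc, a calcium-binding protein of the reticulum (6.21 ± 0.23), Casq1, the calsequestrin of fast skeletal muscle (5.39 ± 0.81), and Jph2, which holds the reticulum to the cell membrane (5.05 ± 0.20). Their edgeR adjusted p-values ran from 3.53e-05 to 0.00564. Casq2, the calsequestrin of adult heart, averaged 1.44 CPM in positive cells over the 4 libraries and was not tested, while Casq1 averaged 65.8 ± 66.7 (SD, n = 4).

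Of 27 genes listed for ion channels and membrane excitability 10 passed the minimum, 8 higher and none lower, with a median of 3.12, against the same 18.4% and 16.7% of all genes. Only 5 of the 10 would have passed on other cells alone, and Kcnj5, Cacna2d2 and Cacna1d were not among them, so this too is a description. They were led by Kcnj5, a subunit of the acetylcholine-gated potassium channel (5.16 ± 0.41), Cacna2d2, an auxiliary calcium channel subunit (4.56 ± 0.24), Cacna1d, the other L-type pore of the heart (4.24 ± 0.18), and Popdc2 (3.89 ± 0.21) and Bves (3.23 ± 0.12), which encode cAMP-binding membrane proteins of the Popeye family and not channels. The edgeR adjusted p-values of these 5 ran from 3.68e-05 to 0.000585. Without the minimum 14 of 27 were higher and 1 lower, against 9.22% and 10.2% of 21652 genes.

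Of 10 other genes listed for gap junctions 3 were tested, Gjb5, Panx1 and Tjp1, and none was called. Only Gjb5 of these encodes a connexin. None had an unadjusted p under 0.05 in edgeR or a call in DESeq2. All 10 transcription factors of the conduction system were tested, of which 4 were higher and none lower, with a median of 0.86, where 18.4% of all genes were higher and 16.7% lower. Nkx2-5 (4.80 ± 0.19, edgeR adjusted p = 3.83e-05) and Hopx (2.81 ± 0.37, adjusted p = 0.00349) held without any 1 library. Nkx2-5 and Tbx5 had also served as markers in the check of the label, so their values repeat that check. Tbx5 (2.59 ± 0.60, adjusted p = 0.0211) lost its call without E8.0 (adjusted p = 0.0537) or without E8.25 (0.0623). Etv1 (0.92 ± 0.23, adjusted p = 0.0271) lost it without E8.0 (0.0694), E9.5 (0.0725) or E10.5 (0.0616). Tbx3, which marks the conduction system, had -0.66 ± 0.26 (adjusted p = 0.0970) and Shox2, of the sinus node, 2.10 ± 0.86 (adjusted p = 0.103).

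For each member, the genes with the most similar course were found over 15 sums of the 4 cell groups and 4 libraries, as Pearson's r of log2(CPM + 10) among 7289 genes. These correlations are over cell groups that share libraries and are given as a description. Cacna1c, at 3.51 to 11.8 CPM in positive cells, and Hcn4, at 4.15 to 7.82, lay near or under the 10 CPM added. The r values of Cacna1c and Hcn4 therefore say little about a course over the stages. Ryr2 was nearest to Csrp3, Myl1 and Ldb3 (r of 0.995 to 0.996), Slc8a1 to Myl1, Trim55 and Tmem163 (0.989 to 0.996), Cacna1c to Smpx, Fitm1 and Sorbs2 (0.986 to 0.989) and Atp2a2 to Fam96b, Hacd1 and Tpm1 (0.960 to 0.965). Pln was nearest to Ndrg2, Cox6a2 and Fxyd1 (0.974 to 0.989) and Hcn4 to Dcp1b, Myocd and Thbs4 (0.983 to 0.984). Among the connexins, Gja1 was nearest to Kat7, Mtap and Slc27a3 (0.956 to 0.963), Gjc1 to Thap3, Zfp260 and Galnt11 (0.972 to 0.982) and Gja5, with the lowest values, to Tmbim1, Fam198b and Mical2 (0.893 to 0.902).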

How the data were processed

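Droplet libraries were made with the 10x Genomics version 2 kit, which reads the 3′ end of transcripts. Per the labels the authors used Cell Ranger 3.1.0 and mm10, and the deposited values were raw UMI counts per gene and barcode, limited to barcodes called as cells. Libraries held 2956 to 8070 barcodes and 74920880 to 168407965 UMIs.

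Cells with at least 1000 genes and at most 10% mitochondrial UMIs were retained, and 4, 2, 3 and 28 failed. Doublets were scored against simulated doublets (30 components, 50 neighbours) and the highest scores were removed at 0.8% per 1000 cells, which took 459, 70, 131 and 517 cells, 53, 1, 37 and 43 of them sarcomere-positive, in the order of stages. UMIs were summed per library and class and tested with edgeR 4.0.16 in R 4.3.3 (TMM, quasi-likelihood, mean of at least 5 CPM over the 8 sums, Benjamini-Hochberg adjustment over all genes tested, threshold 0.05). The library was a block, because both classes of a library come from the same embryos and suspension. Intervals are 95%, exact, and cover counting error only. Simulated data with known folds were used to test the edgeR step. Thinned shares use cells with at least 10000 UMIs, namely 291, 74, 425 and 208 positive cells.

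The 9 genes and the lists were chosen with earlier results of these data known. Named genes were the 9 members, up to 5 per list with the largest difference among those called and alike in 4 of 4 libraries, and the 3 nearest to each member by correlation. Others named in the text, such as Casq2, Tbx3 and Shox2, were picked after their values were seen. Alternatives were DESeq2 1.42.0, other scalings, thresholds, cell filters and left-out libraries. Python 3.11.15 with numpy 2.4.6, scipy 1.17.1, pandas 2.3.3 and scikit-learn 1.9.0 was used.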

Additional observations from a re-analysis of the deposited data

Results flagged for a closer look

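Gja5 stood on different sides of the comparison of classes at different stages. The log2 ratio of positive over other cells was -1.25 at E8.0 (-6.58 to 1.29) and -0.28 at E8.25 (-5.61 to 2.26), each on 1 UMI in positive cells, and 1.399 at E9.5 (0.88 to 1.89) and 4.60 at E10.5 (4.28 to 4.91). The difference between the stages was not tested, since each has 1 library. Endothelial-like cells, which had 3.85 to 27.6 CPM of Gja5, were part of the other cells at all 4 stages, and their part in these ratios was not tested beyond leaving them out. Against remaining cells alone the log2 ratios were 2.27 (-3.35 to 5.61), 2.13 (-3.37 to 5.09), 4.26 (3.41 to 5.17) and 6.59 (6.05 to 7.17). The early values again rest on 1 UMI in the positive cells of each library.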

How the results depend on the processing

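The calls on Ryr2, Pln, Slc8a1 and Atp2a2 were the same under all 20 alternatives, and Gja1 kept its direction under all of them. The number of members called was 5 and ranged from 4 to 7. Without the replicate block 4 were called (Gja1 lost, adjusted p = 0.0558), and the conduction transcription factors called went from 4 to 2. Over all genes, 3259 were called with the block and 922 without it. Leaving out 1 library at a time gave 1745 to 2426. DESeq2 called 7 conduction transcription factors (6 higher, 1 lower), and 3912 of the 9297 genes tested. Without the minimum level, 4196 of 21652 genes were called. Among them were 15 ion channel and excitability genes and 1 gene of the gap junction list, Gja4. Scaling without sarcomere, globin, mitochondrial and ribosomal protein genes also called 1, and leaving out 1 library gave 0 to 2, the 2 (Gja4 and Panx1, lower) without E8.25. Both genes are named after their values were seen. The log2 fold difference of Gjc1 was -0.0007 by DESeq2, -0.0316 without the minimum, -0.0143 with a rule of 1 UMI per gene, -0.13 without endothelial-like and globin-rich cells, -0.0378 against cells with none of the 8 genes, -0.0073 without shared barcodes (added after the data were seen) and -0.11 to 0.12 with 1 library left out, none of them called. The count of 4 members that differed 2-fold between E8.0 and E10.5 was the same in all 10 alternatives. The E8.25 over E8.0 log2 ratio of Atp2a2 was -0.23, and -0.03 when cells were thinned before the rule. With a rule of 1 UMI per gene that ratio was -2.07 for Slc8a1 and -1.13 for Ryr2, against -1.27 and -0.56. The causes of these changes were not tested. With 1 chamber marker in place of 2, the members that differed 2-fold between atrial-like and ventricular-like cells at both stages went from 1 (Pln) to 2, with Hcn4. Values of Gja5 at the early stages, Hcn4 and Cacna1c rest on few UMIs and have wide intervals. Remaining cells in place of all other cells were added after the data were seen.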
